A study of Mus musculus with 14 samples.

Results

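The nuclear genes described here encode assembly factors of the respiratory chain, proteins that build complexes I to V and are not part of the finished enzymes. The list holds 44 mouse genes chosen by name from known biology, out of 35275 genes in the table. By complex, 13 belong to complex I, 4 to complex II, 6 to complex III, 19 to complex IV and 2 to complex V. Genes with at least 1 FPKM (fragments per unit of gene length and of sequencing depth) in at least 3 of the 14 libraries were tested, and 42 of the 44 passed. The other 2 were Sco2, a copper chaperone, and Cox16, a factor for the COX2 subunit.

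Brown adipose tissue of C57BL/6 mice at 8 weeks of age was used for RNA sequencing, with 1 library for each of 14 animals. Knockouts (LrpprcFF Ucp1-Cre) carried floxed Lrpprc alleles together with a Cre recombinase driven by the Ucp1 promoter, which acts in cells that have expressed Ucp1, the uncoupling protein of brown adipocytes. Controls (LrpprcFF) carried the same floxed alleles without Cre. Housing was at room temperature (22 °C) for 4 animals of each genotype and at thermoneutrality (30 °C) for 3 of each. The labels name brown adipocytes, while the RNA came from homogenised tissue, so that other cells of the depot contributed. In bulk tissue, fewer cells of a type and less RNA per cell cannot be told apart.

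Complexes I, III, IV and V are built from subunits encoded in both the nuclear and the mitochondrial genome, and complex II from nuclear subunits alone. Assembly factors insert the cofactors (heme, copper, iron-sulfur clusters, flavin), hold intermediates together, or promote the synthesis of a subunit encoded in mitochondrial DNA. LRPPRC is an RNA-binding protein of the mitochondrial matrix that stabilises mitochondrial messenger RNAs, and brown adipocytes are rich in respiratory chain, which they use to make heat.

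Library depth was 15.95 to 21.32 M fragments. Lrpprc itself was lower in every knockout than in every control of its temperature, with 9.34 to 12.5 FPKM in knockouts against 23.2 to 47.1 in controls at 22 °C and 5.95 to 9.91 against 28.6 to 31 at 30 °C. Ucp1 was abundant in all 14 libraries (299 to 3680 FPKM). Xist was at 9.01 to 18.4 FPKM at 30 °C and at most 0.0141 at 22 °C, and the Y-linked Ddx3y at 14.5 to 23.1 FPKM at 22 °C and at most 0.0244 at 30 °C. Housing temperature and sex-linked expression therefore cannot be told apart, which touches every comparison between temperatures below. Comparisons between genotypes were made within a temperature. Values below are scaled FPKM, the deposited FPKM divided by a factor per library so that the typical nuclear gene is level across libraries. A fold change is on the scale of log2(scaled FPKM + 1), which understates changes of weakly expressed genes.

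Assembly factor transcripts were far less abundant per length than those of the subunits they serve. In 22 °C controls the 42 tested factors had a median of 19.8 scaled FPKM, against 534 for the 79 nuclear subunit genes of complexes I to V. The range ran from Sdhaf1, a factor for iron-sulfur insertion into complex II, at 1.79, to Cox14, which promotes COX1 synthesis, at 186. In 22 °C controls the median of the factors was 21.5 for complex I, 10.1 for complex II, 38.6 for complex III, 17.3 for complex IV and 60.8 for complex V. The same medians for the subunits were 361, 682, 767, 1790 and 600.

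In knockouts housed at 22 °C, 1 of 42 factors was called, the complex IV factor Pet100, which was lower. A gene is called here when its adjusted p from limma, fitted across all 13079 tested genes, is under 0.05. Over all genes tested, 1.97% were called at 22 °C in either direction and 1.06% were called lower. The median log2 fold change of the factors was -0.09, against 0.00 for all genes, with 29 factors below and 13 above 0. The share called, 2.38%, was near that over all genes. Ranges of knockouts and controls did not overlap for 3 factors, Ndufaf5, Coa3 and Pet100, all lower in knockouts. Over all genes, 4.54% had such ranges in that direction and 4.84% in the other, where 0 factors did. In FPKM as deposited the ranges of those 3 factors overlapped. Knockouts then lay entirely above controls in Acad9, Uqcc1, Cox11, Cox18 and Cox20, and ranges as deposited were not counted over all genes. The sign of the median depended on the scaling: it was 0.19 in FPKM as deposited and 0.04 with libraries scaled to the same total. Those scalings shifted the median of all genes by 0.24 and 0.115, and relative to that shift the factors were at -0.05 and -0.08.

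In knockouts housed at 30 °C, 10 of the 42 factors fell and 0 rose. They were Foxred1, Ndufaf2 and Ndufaf5 of complex I, Sdhaf4 of complex II, Uqcc3 and Bcs1l of complex III, Pet100, Cox14 and Surf1 of complex IV, and Atpaf2 of complex V. The share called was 23.8%, beside 14.1% of all genes called in either direction, 5.28% called lower and 8.82% called higher. The median log2 fold change was -0.31 against 0.07 for all genes, with 37 factors below and 5 above 0. At an unadjusted p under 0.05 there were 22 factors, and 25 had knockouts entirely below controls, beside 14.6% of all genes. In FPKM as deposited, knockouts were entirely below controls only in Ndufaf1, Ndufaf2, Uqcc3, Surf1, Taco1, Cox14, Coa7 and Pet100. They were entirely above controls in Ndufaf4, Uqcc2, Cox11, Cox20 and Atpaf1. Relative to the median of all genes the factors were at -0.38 with the scaling used here, and between -0.34 and -0.36 with the other scalings.

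**Figure D1:**
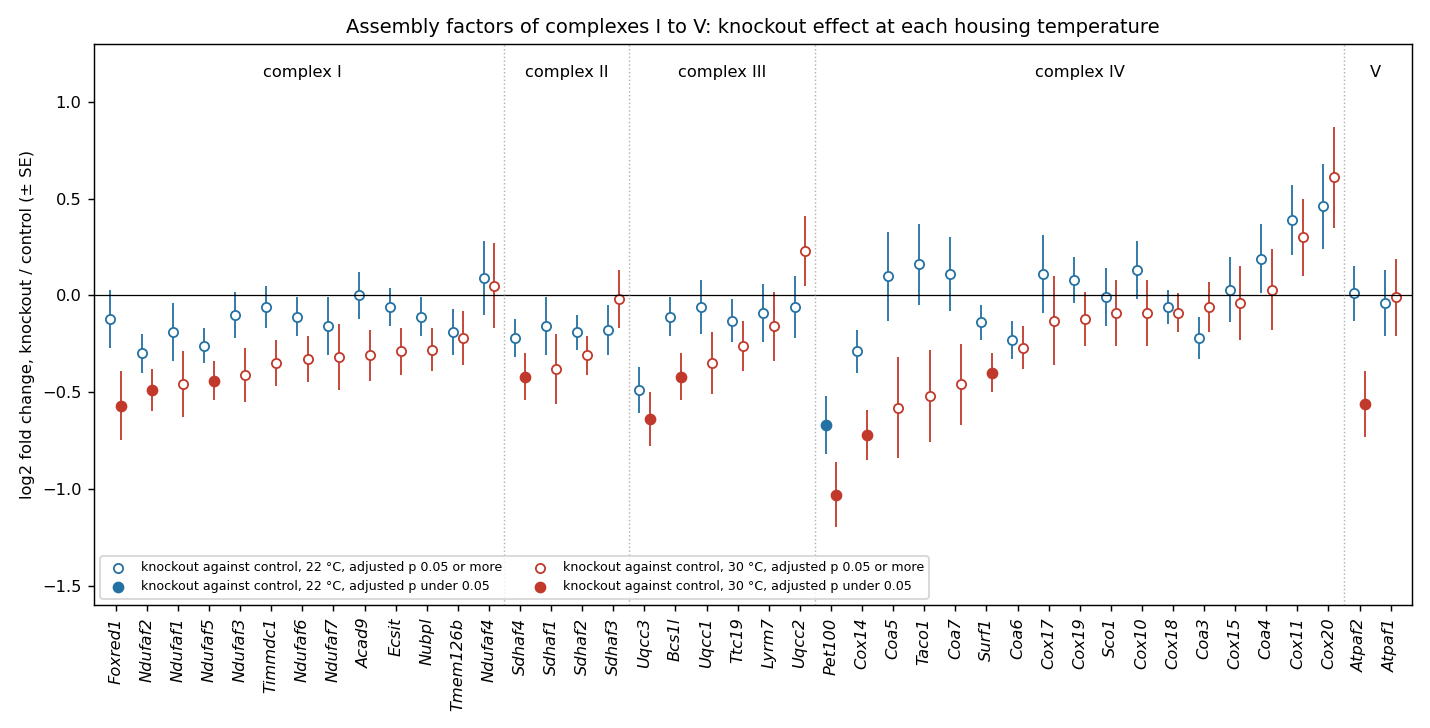
Log2 fold change (knockout over control, ± SE) of the 42 tested assembly factors, grouped by complex along the horizontal axis, at 22 °C (blue) and 30 °C (red). Filled points have a limma adjusted p under 0.05. The single filled point at 22 °C is Pet100, and all 10 filled points at 30 °C lie below 0.

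The 30 °C count rested on few animals. It was 3 without control replicate 2, 4 without knockout replicate 1, 5 without control replicate 1, 5 without knockout replicate 3 and 6 without control replicate 3 at this temperature, all called lower. Pet100, Cox14 and Uqcc3 were called lower in all 14 fits that left out an animal. In FPKM as deposited, 2 factors were called lower (Cox14, Pet100) and 3 were called higher (Cox11, Cox20, Uqcc2), at a median of -0.03 for the factors and 0.307 for all genes.

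Markers of other cell types also differed between genotypes at 30 °C. All 10 macrophage markers were higher in knockouts, with a summed level of 667 to 2080 scaled FPKM against 118 to 426 in controls, and all 4 fibroblast markers were higher (373 to 751 against 190 to 223). Adipocyte markers were lower in 3 of 6 (summed 5420 to 7520 against 10000 to 11900), and brown adipocyte markers in 2 of 8 (1090 to 1630 against 1930 to 2820). The part of these cells in the lower level of the factors was not tested. At 22 °C, 0 of 10 macrophage markers were called, with sums of 96.1 to 215 in knockouts and 55.2 to 82.2 in controls, and 2 of 6 adipocyte markers were lower (9540 to 11100 against 13100 to 16400). Of the brown adipocyte markers at 22 °C, 1 of 8 was higher and 0 were lower (3180 to 5670 against 3240 to 5530). Skeletal muscle markers varied between animals of 1 group, from 69.9 to 12200 in 30 °C controls. With their mean level as a covariate, an alternative chosen after the data were seen, 7 factors were called lower at 30 °C. No marker list had a gene at 0 in every library.

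The 3 factors that fell most at 30 °C (Pet100, Cox14, Uqcc3) and Uqcc2, which was not called, were picked by their fold changes. The difference of Uqcc2 from the other 3 was not tested. Upstream sequences of these 4 factors are given. Each is the 200 bases before the gene's start in the RefSeq table for build GRCm38.p6, written 5′ to 3′ on the gene's strand, with capitals for a motif that lies whole within the bases shown. They lie at chr8:3621351-3621550 (Pet100, plus strand), chr15:99725418-99725617 (Cox14, plus strand), chr19:8880934-8881133 (Uqcc3, minus strand) and chr17:27133892-27134091 (Uqcc2, minus strand).
Pet100: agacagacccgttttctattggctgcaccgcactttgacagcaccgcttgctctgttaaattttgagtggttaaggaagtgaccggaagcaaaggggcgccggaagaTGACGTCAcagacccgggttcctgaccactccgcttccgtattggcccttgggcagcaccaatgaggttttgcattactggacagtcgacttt
Cox14: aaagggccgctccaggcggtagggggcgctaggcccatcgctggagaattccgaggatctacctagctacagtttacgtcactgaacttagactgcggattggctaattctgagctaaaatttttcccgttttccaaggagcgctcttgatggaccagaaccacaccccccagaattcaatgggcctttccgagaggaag
Uqcc3: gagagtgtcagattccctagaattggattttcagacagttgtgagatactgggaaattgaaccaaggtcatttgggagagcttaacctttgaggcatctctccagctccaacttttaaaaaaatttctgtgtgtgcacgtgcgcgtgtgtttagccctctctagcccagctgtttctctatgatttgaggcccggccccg
Uqcc2: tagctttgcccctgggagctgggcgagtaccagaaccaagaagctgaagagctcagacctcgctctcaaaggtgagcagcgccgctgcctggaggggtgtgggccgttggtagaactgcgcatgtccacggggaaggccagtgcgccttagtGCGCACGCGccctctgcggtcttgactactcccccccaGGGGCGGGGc

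Capitals mark the cyclic AMP response element TGACGTCA in Pet100, and in Uqcc2 the motifs of NRF1, a regulator of many respiratory genes (GCGCANGCG), and of Sp factors (GGGGCGGGG), which do not overlap each other. The 3 factors that fell most shared no motif of the 7 searched within these bases. Uqcc3 also has an Sp match, unmarked because it begins at position -5 and runs past the bases shown. Motifs were searched on both strands in windows of 300 bases (250 before to 50 after the start), which the table holds for 39 of the 44 factors, not for Acad9, Coa6, Cox17, Cox18 and Ndufaf6. The NRF1 motif was in 7 of the 39 and in 6.47% of all 27025 promoters in the table, beside 19 of 64 subunit promoters. The ETS motif CCGGAAGNG was in 7 (4.18% of all), the Sp motif in 8 (11.6%) and the YY1 motif AAGATGGCG in 3 (1.49%). Of the 64 subunit promoters, 4 held the ETS, 9 the Sp and 6 the YY1 motif. The ERR motif TCAAGGTCA was in 0 factors (0.407% of all) and 2 subunits, and the amino acid response motif TGATGNAAN in 1 (4.04%) and 0. These are matches of letters and not measured binding.

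The cyclic AMP response element was in 4 of the 39 promoters, beside 1.88% of all and 4 of 64 subunit promoters. The 4 factor promoters are shown with the motif in capitals because the same 8 letters stand before factors of 3 complexes. They lie at chr4:108328082-108328111 (Coa7), chr12:52097708-52097737 (Nubpl), chr8:3621447-3621476 (Pet100) and chr11:62281411-62281440 (Ttc19), all on the plus strand.
Coa7: ctgaggagcgcTGACGTCAcgcacgccgcc
Nubpl: gggttgccacgTGACGTCAtttttccgcgc
Pet100: gcgccggaagaTGACGTCAcagacccgggt
Ttc19: acgagacggcgTGACGTCAgcatgcgtcat

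The motif begins 59, 27, 93 and 51 bases before the start in Coa7, Nubpl, Pet100 and Ttc19. At 30 °C the knockouts of all 4 genes lay below the controls, with log2 fold changes of -0.46 in Coa7, -0.28 in Nubpl, -1.03 in Pet100 and -0.26 in Ttc19, of which Pet100 was called. At 22 °C they were 0.11, -0.11, -0.67 and -0.13. Of the 42 tested factors, 25 had all 30 °C knockouts below the controls, beside 14.6% of all genes. A link between the motif and the fold changes was not tested.

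The factors that fell most were in complex IV, cytochrome c oxidase. Pet100 is an inner membrane protein that helps to join subunits to an early intermediate of this complex. Pet100 had 22.4, 25.9, 25.4 and 26 scaled FPKM in 22 °C controls and 17.8, 10.8, 19.3 and 14.6 in 22 °C knockouts. At 30 °C Pet100 had 22.4, 28.1 and 24.1 in controls and 12.2, 10.2 and 12.4 in knockouts. All knockouts lay below all controls at both temperatures. Pet100 had a log2 fold change of -1.03 (SE 0.17, limma adjusted p = 0.00295) at 30 °C and -0.67 (SE 0.15, limma adjusted p = 0.038) at 22 °C. Over 11 other settings and 14 fits without an animal, Pet100 was called at 30 °C in all of them and at 22 °C in 7 of 11 and 4 of 14. The call at 22 °C was lost without any 1 of the 22 °C controls, and without 22 °C knockout replicate 1, 2 or 4. It was also lost without 30 °C control replicate 1 or 3 or 30 °C knockout replicate 3. Without 22 °C control replicate 3 or 22 °C knockout replicate 1, Uqcc3 was called instead, and the rest of these fits had 0 factors called. Among the other settings, the Pet100 call was lost with no filter, in the compared groups alone and in FPKM as deposited. It was lost too without the 2 controls whose identifiers begin with R, while the identifiers of all other animals begin with E. Over all settings and fits the largest limma adjusted p of Pet100 at 22 °C was 0.125, and the log2 fold change stayed between -0.78 and -0.38. The promoter of Pet100 is among the 4 with the cyclic AMP response element. Exons of Pet100 overlap those of Pcp2 on the other strand over 52.6% of their length, and Pcp2 had a mean of 0.144 FPKM. The use of strand is not given in the sources used here.

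Cox14 is a small inner membrane protein that binds newly made COX1, the catalytic subunit, and keeps its synthesis going. Cox14 had 182, 172, 187 and 203 scaled FPKM in 22 °C controls and 163, 143, 178 and 128 in knockouts, so that 1 knockout lay within the control range. Cox14 at 30 °C had 203, 256 and 254 in controls and 149, 141 and 139 in knockouts, with every knockout below every control. Cox14 had a log2 fold change of -0.72 (SE 0.13, limma adjusted p = 0.00453) at 30 °C and -0.29 (SE 0.11, limma adjusted p = 0.232) at 22 °C. It was called lower at 30 °C in all 11 other settings and all 14 fits without an animal. The other 2 factors of COX1 synthesis were not called at 30 °C, the translational activator Taco1 at -0.52 and Coa3 at -0.06.

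Surf1 takes part in handing heme A to COX1. Surf1 had 59.4, 55.8, 51.5 and 45.8 scaled FPKM in 22 °C controls and 46.4, 47.3, 45.2 and 52.2 in knockouts, and the groups overlapped. Surf1 at 30 °C had 53.8, 54.1 and 54.4 in controls and 39, 41.1 and 42 in knockouts, well apart. Surf1 had a log2 fold change at 30 °C of -0.40 (SE 0.10, limma adjusted p = 0.0194), called in 9 of 11 other settings and 9 of 14 fits without an animal. Of the enzymes that make heme A, Cox10 was at -0.09 (SE 0.17) and Cox15 at -0.04 (SE 0.19) at 30 °C. Neither was called, and their difference from Surf1 was not tested.

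Of the 5 tested copper delivery factors, 0 were called by limma at 30 °C, and 1 (Coa6) had an unadjusted p under 0.05. Their median log2 fold change was -0.12, with values from -0.27 for Coa6 to 0.30 for Cox11, which brings copper to COX1. For Cox11, 48.3% of the exon length overlaps exons of Tom1l1 on the other strand (mean 2.64 FPKM). Cox17, the copper donor of the intermembrane space, was at -0.13, Cox19 at -0.12 and Sco1, which brings copper to COX2, at -0.09. Coa6 was the member of this group whose 30 °C knockouts all lay below the controls. Sco2 was listed at 0 in all 14 libraries. In the reference annotation 66.2% of its exon length overlaps exons of Ncaph2 and 68.3% those of Tymp, and the part of this overlap in the 0 was not tested.

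Cox20, a chaperone of the newly inserted COX2 subunit, had the highest log2 fold change of the list at both temperatures. Cox20 had 2.3, 1.48, 2.97 and 2.39 scaled FPKM in 22 °C controls and 3.13, 2.93, 4.62 and 3.36 in knockouts. Cox20 at 30 °C had 0.749, 2.75 and 1.89 in controls and 2.32, 3.99 and 3.04 in knockouts. The groups overlapped at both temperatures. Cox20 had a log2 fold change of 0.46 (SE 0.22, limma adjusted p = 0.339) at 22 °C and 0.61 (SE 0.26, limma adjusted p = 0.141) at 30 °C, so that neither passed. The values rest on about 12 to 82 reads per library, and 91.1% of the exon length of Cox20 overlaps Hnrnpu on the other strand, whose reads cannot be told apart without strand. Cox18, which inserts COX2 into the membrane, was at -0.09 at 30 °C, and Cox16 had 0.195 to 0.776 FPKM in the 14 libraries. Among the remaining factors of complex IV at 30 °C, Coa5 was at -0.58, Coa7 at -0.46 and Coa4 at 0.03, and none of these 3 was called.

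**Figure D2:**
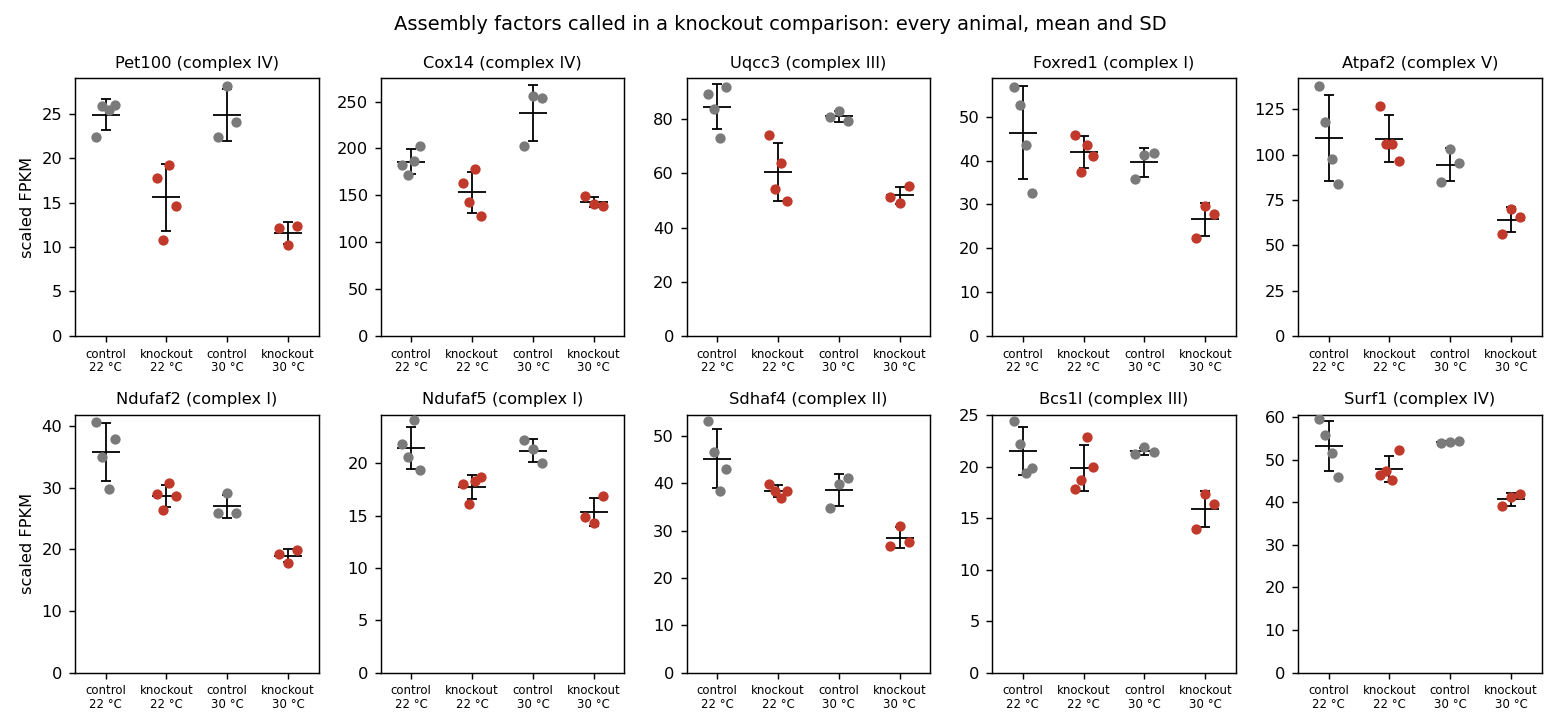
Scaled FPKM (vertical axis, from 0) of the 10 assembly factors called in a knockout comparison, for each animal in the 4 groups, with mean and SD; controls are grey and knockouts red. At 30 °C the knockouts of all 10 genes lie below the controls, while at 22 °C this holds for Pet100 and Ndufaf5.

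In complex I, 3 of 13 factors fell at 30 °C and the median log2 fold change was -0.33, beside -0.11 at 22 °C with 0 called by limma and 2 at an unadjusted p under 0.05. Knockouts lay entirely below controls in 11 of 13 at 30 °C and in 1 of 13 at 22 °C. Ndufaf2 is a late factor that stands in the place of a subunit until the matrix arm is complete. Ndufaf2 had 40.6, 34.9, 29.7 and 37.9 scaled FPKM in 22 °C controls and 29, 26.4, 30.7 and 28.6 in knockouts, with 1 knockout above the lowest control. Ndufaf2 at 30 °C had 25.9, 29.1 and 25.8 in controls and 19.3, 17.8 and 19.8 in knockouts, with no overlap. Ndufaf2 had a log2 fold change of -0.49 (SE 0.11, limma adjusted p = 0.0138) at 30 °C and -0.30 (SE 0.10, limma adjusted p = 0.142) at 22 °C, and the 30 °C call was lost in FPKM as deposited and without 1 animal, 30 °C control replicate 2. Exons of B230220B15Rik on the other strand overlap 65.6% of the exon length of Ndufaf2, and the level of that gene was not analysed here.

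Ndufaf5 modifies an arginine of a core subunit early in assembly. Ndufaf5 had 21.8, 20.6, 24.1 and 19.4 scaled FPKM in 22 °C controls and 18, 16.1, 18.3 and 18.7 in knockouts, so that every knockout was below every control. Ndufaf5 at 30 °C had 22.2, 21.4 and 20 in controls and 14.9, 14.3 and 16.9 in knockouts, again without overlap. Ndufaf5 had a log2 fold change of -0.44 (SE 0.10, limma adjusted p = 0.0141) at 30 °C and -0.26 (SE 0.09, limma adjusted p = 0.168) at 22 °C. Foxred1, a flavoprotein needed in the middle and late stages, had 56.7, 52.6, 43.5 and 32.7 in 22 °C controls and 45.8, 37.5, 43.6 and 41 in knockouts, fully overlapping. Foxred1 at 30 °C had 35.8, 41.4 and 41.7 in controls and 22.4, 29.6 and 27.8 in knockouts, which were apart. Its log2 fold change at 30 °C was -0.57 (SE 0.18, limma adjusted p = 0.0474), a call near the threshold that held in 6 of 11 other settings and 3 of 14 fits without an animal.

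The 5 factors of the MCIA complex, which builds the membrane arm of complex I, were not called at either temperature (limma, with 4 at an unadjusted p under 0.05 at 30 °C and 0 at 22 °C). At 30 °C all 5 had knockouts below controls, with log2 fold changes of -0.46 for Ndufaf1, -0.35 for Timmdc1, -0.31 for Acad9, -0.29 for Ecsit and -0.22 for Tmem126b, and the smallest limma adjusted p was 0.0767. Ndufaf4, a factor of the early matrix arm, had the highest log2 fold change of complex I. Ndufaf4 had 22.2, 15, 12.3 and 15.1 scaled FPKM in 22 °C controls and 24.9, 15.1, 13.5 and 15.8 in knockouts. Ndufaf4 at 30 °C had 7.14, 7.2 and 7.29 in controls and 6.35, 7.46 and 8.9 in knockouts. The genotypes overlapped at both temperatures (0.09 and 0.05 on the log2 scale), while every 22 °C animal was above every 30 °C animal. Ndufaf3, its partner, was at -0.41 in 30 °C knockouts and was not called.

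In complex II, succinate dehydrogenase, 1 of 4 factors fell at 30 °C. Sdhaf4 helps to join the flavin-carrying subunit to its iron-sulfur partner. Sdhaf4 had 53.1, 46.6, 38.3 and 43 scaled FPKM in 22 °C controls and 39.9, 38.3, 37 and 38.3 in knockouts, which were in the low part of the control range or below it. Sdhaf4 at 30 °C had 34.7, 39.9 and 41.2 in controls and 26.8, 31 and 27.7 in knockouts, without overlap. Sdhaf4 had a log2 fold change of -0.42 (SE 0.12, limma adjusted p = 0.0302) at 30 °C and -0.22 (SE 0.10, limma adjusted p = 0.307) at 22 °C. Sdhaf2, which promotes the attachment of flavin, was at -0.31 (SE 0.10, limma adjusted p = 0.0509) at 30 °C.

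The iron-sulfur factors Sdhaf1 and Sdhaf3 were the weakest of complex II and were not called. Sdhaf1 had 1.45, 1.44, 2 and 2.27 scaled FPKM in 22 °C controls and 2.02, 1.18, 1.74 and 1.07 in knockouts. Sdhaf1 at 30 °C had 1.16, 1.21 and 1.69 in controls and 0.592, 0.78 and 1.05 in knockouts, which lay below the controls (log2 fold change -0.38, limma adjusted p = 0.178). About 35 to 103 reads per library stand behind these values. Sdhaf3 had 3.2, 3.78, 2.15 and 2.68 in 22 °C controls and 2.93, 2.33, 2.22 and 2.34 in knockouts, overlapping. Sdhaf3 at 30 °C had 2.02, 1.51 and 1.78 in controls and 1.56, 2.02 and 1.61 in knockouts, also overlapping.

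In complex III, 2 of 6 factors fell at 30 °C, 1 of the cytochrome b group and 1 of the Rieske group. Uqcc3 acts just after cytochrome b, the mitochondrially encoded subunit, has been made. Uqcc3 had 89.4, 83.8, 73.2 and 91.9 scaled FPKM in 22 °C controls and 74.1, 54.3, 63.8 and 50 in knockouts, with a single knockout above the lowest control. Uqcc3 at 30 °C had 80.7, 83.2 and 79.3 in controls and 51.4, 49 and 55.2 in knockouts, far apart. Uqcc3 had a log2 fold change of -0.64 (SE 0.14, limma adjusted p = 0.00934) at 30 °C and -0.49 (SE 0.12, limma adjusted p = 0.0533) at 22 °C. Its 30 °C call held in all fits without an animal and in 10 of 11 other settings, and was lost in FPKM as deposited (limma adjusted p = 0.0724).

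Uqcc1 and Uqcc2, which act together on cytochrome b in an earlier step, were not called. Uqcc1 had 66.3, 60.4, 53.4 and 42.8 scaled FPKM in 22 °C controls and 52.2, 51.4, 55.1 and 53 in knockouts. Uqcc1 at 30 °C had 60.5, 66.5 and 58.1 in controls and 39.3, 60.6 and 47.1 in knockouts, with 1 knockout inside the control range. Uqcc1 had a log2 fold change of -0.35 (SE 0.16, limma adjusted p = 0.181) at 30 °C. Uqcc2 had 86.2, 71, 84.1 and 102 in 22 °C controls and 98.8, 85.6, 70.2 and 75.5 in knockouts. Uqcc2 at 30 °C had 83.2, 77.2 and 70.4 in controls and 80.8, 76.6 and 120 in knockouts, and the groups overlapped at both temperatures. Its log2 fold change at 30 °C, 0.23 (SE 0.18, limma adjusted p = 0.437), was the highest of complex III.

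Bcs1l, the AAA protein that moves the folded Rieske iron-sulfur protein across the inner membrane, fell at 30 °C. Bcs1l had 24.5, 22.2, 19.4 and 19.9 scaled FPKM in 22 °C controls and 17.8, 18.7, 22.9 and 20 in knockouts, overlapping. Bcs1l at 30 °C had 21.2, 21.9 and 21.4 in controls and 14, 17.4 and 16.4 in knockouts, which were all lower. Bcs1l had a log2 fold change at 30 °C of -0.42 (SE 0.12, limma adjusted p = 0.0346), called in 7 of 11 other settings and 9 of 14 fits without an animal. Ttc19, which clears fragments of the Rieske protein, was at -0.26 and Lyrm7, its chaperone in the matrix, at -0.16, and neither was called.

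Of the 2 chaperones of the F1 part of ATP synthase, Atpaf2 fell at 30 °C and Atpaf1 did not pass the test, and the difference between them was not tested. Atpaf2, the chaperone of the alpha subunit, had 138, 118, 97.5 and 84 scaled FPKM in 22 °C controls and 127, 106, 106 and 96.7 in knockouts, with the knockouts inside the control range. Atpaf2 at 30 °C had 85, 103 and 95.3 in controls and 56.4, 69.9 and 65.8 in knockouts, all lower. Atpaf2 had a log2 fold change of -0.56 (SE 0.17, limma adjusted p = 0.042) at 30 °C and 0.01 (SE 0.14) at 22 °C, and the 30 °C call held in 7 of 11 other settings and 6 of 14 fits without an animal. Atpaf1, the chaperone of the beta subunit, had 14, 13.9, 14.2 and 7.07 in 22 °C controls and 11.2, 11, 12.4 and 11.5 in knockouts. Atpaf1 at 30 °C had 17, 15.3 and 16.7 in controls and 14.6, 18.1 and 15.9 in knockouts, overlapping, with a log2 fold change of -0.01 (SE 0.20).

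Whether the knockout effect differed between temperatures was tested as an interaction term. It was called for 0 of 42 factors and for 0 of 13079 genes (0.0%), and for 0 factors in all alternatives run. At an unadjusted p under 0.05 there were 2 factors, Cox14 (difference of log2 fold changes, 22 °C minus 30 °C, 0.43, limma adjusted p = 0.316) and Atpaf2 (0.57, limma adjusted p = 0.301). The difference was positive in 37 of 42 factors, with a median of 0.19. It was positive in 75 of 79 nuclear subunits (median 0.31) and in 5555 of all 13079 genes (median -0.05). The lists of factors called at 22 °C and at 30 °C are therefore not shown to differ.

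The median fold change of the nuclear subunits was below that of their assembly factors at both temperatures. At 30 °C, 65 of 79 subunits were called lower with a median log2 fold change of -0.66, and at 22 °C 18 of 79 with a median of -0.36. The lowest at 30 °C was Cox8b at -1.30 and the highest Atp5g1 at 0.56 (limma adjusted p = 0.629). By complex at 30 °C, the median of factors and of subunits was -0.33 and -0.61 in complex I, -0.35 and -0.65 in complex II, -0.30 and -0.65 in complex III, -0.12 and -0.82 in complex IV, and -0.28 and -0.59 in complex V. Complex IV thus had both the lowest median of subunits and, among the listed genes, the highest median of factors. The 8 tested complex IV factors outside the list, described below, had a median of -0.60 at 30 °C, with 5 called lower. At 22 °C the pairs were -0.11 and -0.33, -0.19 and -0.21, -0.10 and -0.37, 0.08 and -0.39, and -0.01 and -0.37.

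**Figure D3:**
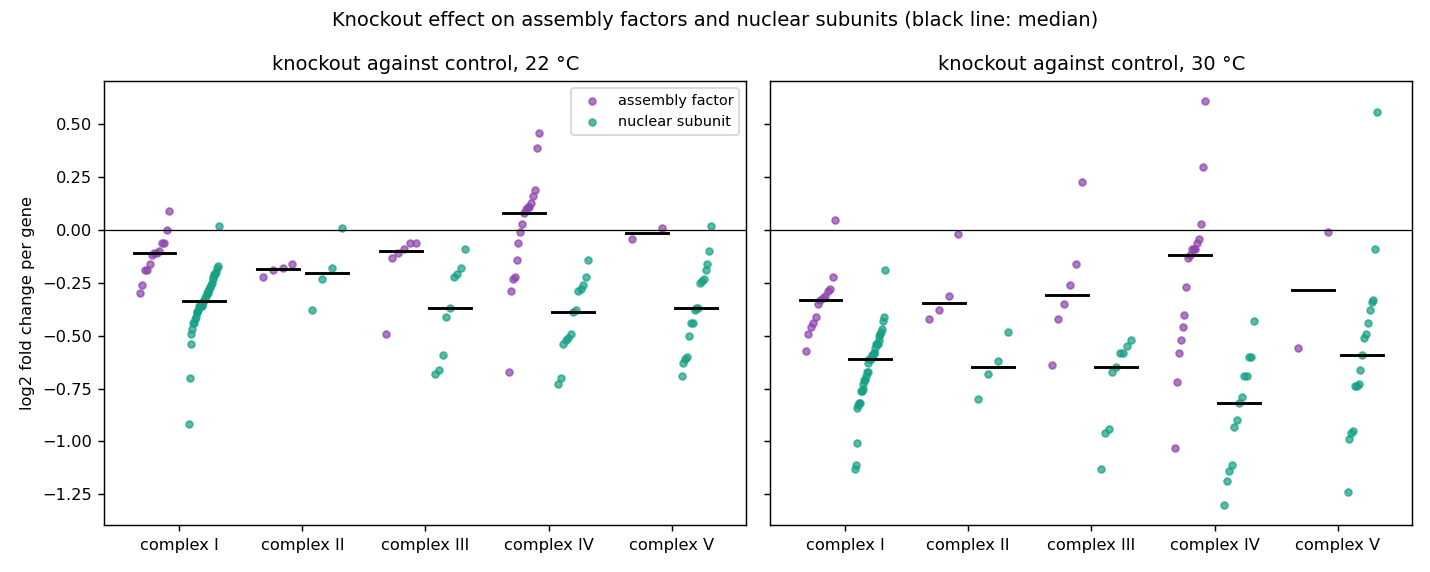
Log2 fold change (knockout over control) of each tested assembly factor (purple) and nuclear subunit (green) by complex, at 22 °C on the left and 30 °C on the right; a point is a gene and the black line is the median. The subunit medians lie below the factor medians in all 5 complexes at both temperatures, with the widest gap in complex IV at 30 °C (-0.82 against -0.12). The gap is narrowest in complex II at 22 °C, where the medians nearly coincide (-0.21 against -0.19).

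A measure that hardly depends on library scaling is the mean log2(FPKM + 1) of the factors minus that of the subunits in the same library. Over all complexes it was -4.30, -4.29, -4.36 and -4.66 in 22 °C controls and -4.14, -4.09, -4.21 and -4.13 in 22 °C knockouts. In 30 °C animals it was -4.37, -4.45 and -4.36 in controls and -4.05, -4.06 and -3.93 in knockouts. Every knockout was above every control of its temperature, so the listed factors stood higher relative to the subunits. The measure leaves out the 17 tested factors outside the list, described below. Their median log2 fold change was -0.27 at 22 °C and -0.54 at 30 °C, beside -0.36 and -0.66 for the subunits. In the measure, the knockout means exceeded the control means by 0.26 at 22 °C (-4.14 ± 0.05 against -4.40 ± 0.18, SD, n = 4) and by 0.38 at 30 °C (-4.01 ± 0.07 against -4.39 ± 0.05, SD, n = 3). The SD pooled within the 4 groups was 0.10. Without the 2 controls with R identifiers the 22 °C value was 0.15.

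By complex, this excess of the knockouts was largest in complex IV, at 0.40 at 22 °C and 0.62 at 30 °C. Complex IV values ran from -6.35 to -5.89 in controls and -5.73 to -5.54 in knockouts at 22 °C, and from -5.94 to -5.86 and -5.37 to -5.15 at 30 °C, without overlap. In complex III it was 0.21 and 0.45, also without overlap at either temperature. In complex I it was 0.21 at 22 °C, where the lowest knockout and the highest control were both at -3.51, and 0.30 at 30 °C without overlap. The 22 °C value of complex I was 0.11 without control replicate 4. Complex II had -0.05 with overlapping groups at 22 °C, which turned to 0.05 without that animal, and 0.29 at 30 °C, where the lowest knockout (-5.59) was just above the highest control (-5.61). Complex V had 0.34 and 0.27 with overlapping groups at both temperatures, and its 22 °C value was 0.14 without the same control. Leaving out single animals by complex was an alternative added after the data were seen. Differences between complexes were not tested.

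**Figure D4:**
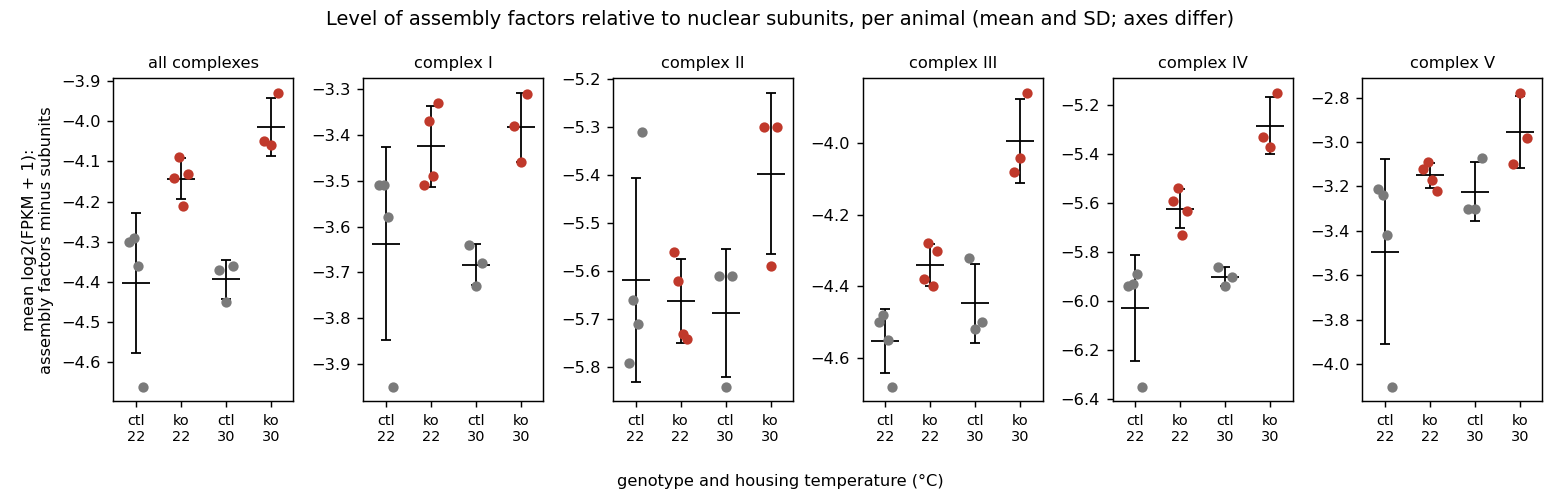
Mean log2(FPKM + 1) of assembly factors minus that of nuclear subunits in each animal (vertical axis, which differs between panels), for all complexes together and for each complex, in controls (ctl, grey) and knockouts (ko, red) at 22 and 30 °C, with mean and SD. In the panel of all complexes the knockouts lie between -4.21 and -3.93, above all controls, which lie between -4.66 and -4.29.

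A further 18 assembly factors outside the list, gathered from the same biology, were examined in the same fit, and 17 passed the filter. At 30 °C 9 of 17 were called lower and 0 higher, with a median log2 fold change of -0.54. By complex the median was -0.50 in complex I (4 factors), -0.60 in complex IV (8) and -0.55 in complex V (4). The lowest was Cmc1, which binds COX1 early in its assembly, at -0.79 (limma adjusted p = 0.00364), and the highest Hccs, which attaches heme to cytochromes c and c1, at 0.02. At 22 °C 1 of 17 was called lower, Higd2a at -0.45 (limma adjusted p = 0.02), and the median was -0.27.

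Between housing temperatures, which also differ in sex-linked expression, more factors were higher than lower in 22 °C animals. In controls 11 of 42 were called, beside 38.8% of all genes. Of these 9 were higher at 22 °C (21.4%, beside 18.2% of all genes) and 2 were lower (4.76%, beside 20.6%). In knockouts 23 were called, beside 51.1% of all genes. Of these 22 were higher (52.4%, beside 21.8%) and 1 was lower (2.38%, beside 29.4%). The share called lower was thus below that of all genes in both genotypes, while the share called higher was near it in controls and above it in knockouts. The median log2 fold changes of the factors were 0.20 in controls and 0.36 in knockouts, against -0.05 and -0.07 for all genes. The nuclear subunits went the same way. Of 79 subunits, 28 were called higher and 2 lower at 22 °C in controls (median 0.20). In knockouts 59 subunits were called higher and 2 lower (median 0.55). In controls the count of factors called was 18 without 22 °C control replicate 4, 20 without both controls with R identifiers and 7 without 30 °C control replicate 2. Ndufaf4 was higher at 22 °C by 1.03 in controls (limma adjusted p = 0.00243) and 1.07 in knockouts (limma adjusted p = 0.000995). The next highest, named after their values were seen, were Cox17 at 0.91 and 1.15 and Ttc19 at 0.71 and 0.84. Ndufaf3 was called lower at 22 °C in both genotypes, at -0.66 and -0.35. With the trend on GC content described next removed, Ndufaf3 was called in neither, and the knockout call was also lost without a filter, with quantile normalization, with the muscle covariate, without 22 °C knockout replicate 1, 2 or 4 and without 30 °C knockout replicate 2 or 3. Cox14 was lower in 22 °C controls (-0.35, limma adjusted p = 0.0394) and at 0.09 in knockouts. That call in controls was lost in 4 other settings (no filter, quantile normalization, only the groups compared, GC trend removed), without 22 °C control replicate 1, 2 or 3, without 30 °C control replicate 2 or 3 and without 30 °C knockout replicate 3.

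These temperature differences moved with base composition. Over the 42 factors the Spearman correlation of the log2 fold change with the GC content of the longest transcript was -0.511 in controls and -0.307 in knockouts, and over all genes tested -0.58 and -0.491. The genes share the same libraries, so this is a description. With a trend on GC content removed from each library, an alternative chosen after the data were seen, 7 factors were called in controls and 23 in knockouts (22 higher, 1 lower), and 17 of the 23 were also called without that step. In the knockout comparison at 30 °C the correlation with GC was -0.294 for the factors and 0.118 for all genes, and 13 factors were called lower with that trend removed. The 30 °C knockout effect of the factors also moved with their level: the Spearman correlation with mean expression was -0.504 over the 42 factors and -0.194 over all genes.

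**Figure D5:**
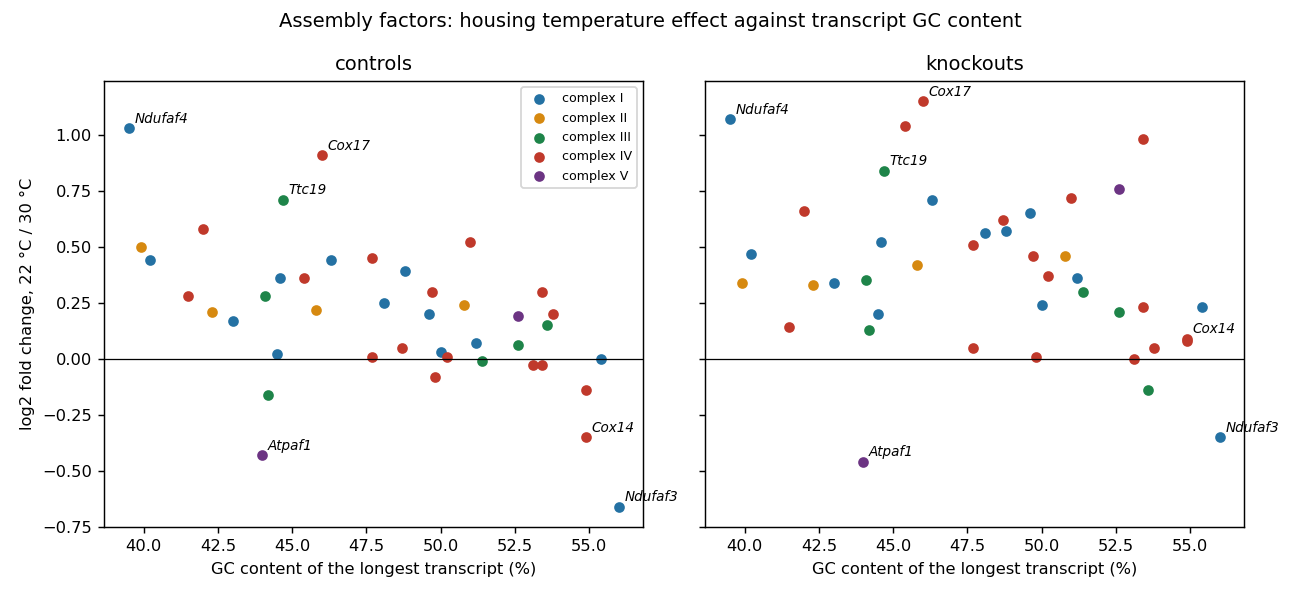
Log2 fold change between housing temperatures (22 °C over 30 °C, vertical axis) of the 42 tested assembly factors against the GC content of the longest transcript (horizontal axis, %), in controls on the left and knockouts on the right, coloured by complex. Ndufaf4, the factor with the lowest GC content (39.5%), is among the highest points in both panels, and Ndufaf3, with the highest (56.0%), is below 0 in both.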

How the data were processed

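The authors deposited a single table of FPKM, in which each animal is a column and genes carry Ensembl identifiers. The genome build is mm9, per the submitters' processing notes. The aligner, counting tool and use of strand are not given in the sources used here. Symbols, transcript lengths and GC content came from GENCODE M21, which matched 34490 of 35275 genes, and promoter sequences from RefSeq (GRCm38.p6), so no coordinates of the deposited table are given. There were 0 columns of other samples. Depth was taken from the step size of low FPKM values, of which 92.6 to 94.1% lay within 5% of a whole number of reads, and read numbers cover counting error only.

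Groups were taken from the genotype and housing temperature in the labels. Beyond the traits given above, the labels hold only an identifier for each animal. The p-values set a difference of group means against a spread between animals that the 4 groups share. Genes with at least 1 FPKM in at least 3 libraries were kept (13079). Each library was divided by its median ratio over 10049 nuclear genes expressed in every library (factors 0.8227 to 0.947 in controls and 1.047 to 1.197 in knockouts). A mean per group was fitted to log2(scaled FPKM + 1) of all 14 libraries with limma 3.58.1 (R 4.3.3; eBayes with trend), with Benjamini-Hochberg adjustment over all genes of each of 5 comparisons. The script was tested on simulated data.

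Members and lists were chosen with earlier results of these data known, so lists are described by counts and medians without a test. Values in every animal are given for factors called in a knockout comparison or in the interaction, and for the highest and lowest of each complex, 17 in all. Alternatives were a pseudocount of 0.1, no filter or a mean of at least 5 FPKM, 3 other scalings, the compared groups alone, arrayWeights, leaving out each animal or the 2 controls with R identifiers, and, for factors minus subunits, a median over genes. Chosen after seeing the data were removal of the GC trend, a skeletal muscle covariate, and leaving out 30 °C controls 1 and 3, which had the highest and lowest muscle markers. Python 3.11.15 with pandas 2.3.3 and matplotlib 3.10.9 made the tables and plots.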

Additional observations from a re-analysis of the deposited data

Results flagged for a closer look

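In groups of 4 animals, the gap of an extreme animal to the nearest other was divided by the range of the group. An animal was singled out where this ratio exceeded Dixon's 95% critical value. Chance does this in about 1 in 20 groups, and 50 groups were examined. There were 4 such values, all in 22 °C controls. Atpaf1 was at 7.07 scaled FPKM in control replicate 4, against 13.9 to 14.2 in the other 3. Pet100 was at 22.4 in control replicate 1, against 25.4 to 26, which is nearer to the knockouts. The level of factors minus subunits in control replicate 4 was -3.95 for complex I, against -3.58 to -3.51, and -6.35 for complex IV, against -5.94 to -5.89. Replicate 4 is 1 of the 2 controls with R identifiers.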

How the results depend on the processing

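No paired analysis was possible because the labels give individual animal identifiers and no shared replicate numbers. With 3 or 4 animals a group, and about 12 to 103 reads for the weakest tested factors (Cox20, Sdhaf1), small changes were not detectable, and FPKM carries no counts for a count model. The number of factors called in 22 °C knockouts, 1, was 0 without a filter, in the compared groups alone and without R controls, 2 with a mean of at least 5 FPKM or the GC trend removed, 3 as deposited (all higher) and 4 with arrayWeights; leaving out an animal gave 0 to 1. Its median of -0.09 turned to 0.19 as deposited and 0.04 at the same total. The 10 called at 30 °C became 5 as deposited (2 lower, 3 higher), 4 at the same total, 16 with quantile normalization and 21 with arrayWeights, and 3 to 14 without an animal. The 11 called between temperatures in controls became 7 in the compared groups alone or with the GC trend removed, 20 with arrayWeights or without R controls, and 7 to 18 without an animal; in knockouts the 23 became 16 to 25 without an animal, 31 with quantile normalization and 17 with the muscle covariate. The level of factors minus subunits exceeded controls by 0.18 to 0.30 at 22 °C and 0.34 to 0.40 at 30 °C without an animal, by 0.15 at 22 °C without R controls, and by 0.44 at 30 °C without 30 °C controls 1 and 3. The cause of these changes was not tested.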

Other observations

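Among the 79 nuclear subunits, the knockout effect moved with the length of the coding sequence, with a Spearman correlation of 0.752 at 22 °C and 0.501 at 30 °C, the shorter genes falling more. The 42 assembly factors gave 0.141 and 0.035, and all genes with a coding length 0.215 and 0.136. The genes share their libraries and a normalisation by length, so these are descriptions. The 8 factors with a coding sequence under 300 bases, among them Pet100, Cox14 and Uqcc3, showed a median of -0.42 on the log2 scale at 30 °C with 3 called lower, and the other 34 had -0.31 with 7 called lower. Subunits under 300 bases had -0.94 with 21 of 21 called lower, and the other 58 had -0.60 with 44 called lower. Over all genes under 300 bases the median was -0.12, with 51 of 261 called lower and 14 higher. Over the 11712 genes of 300 bases or more it was 0.08, with 560 called lower and 1110 higher.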
